A study of Mus musculus with 8 samples.

Results

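The collagen genes described here are the 42 genes whose symbol on the array consists of Col, a number, the letter a and a further number, out of 18193 genes that the array's probe sets name. Each gene encodes 1 alpha chain of a collagen. Of the 42 genes, 11 encode fibrillar chains, 6 encode the type IV chains of basement membranes, 9 encode fibril-associated collagens with interrupted triple helices (FACIT) and 16 encode other collagens. The probe set with the highest mean of the 8 arrays stands for its gene, and 27 of the genes had more than 1 among 82 probe sets in all. Values are log2 expression values, on which a difference of 1 is a doubling. The means of 34 collagen genes lay above 4.17, the level below which the dimmest 25% of all genes fall, and these 34 were tested; the other 8 were not. Just inside that limit were Col10a1, with a mean of 4.21, and Col13a1, with 4.25, and just outside it were Col23a1, with 4.06, and Col4a4, with 3.81.

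RNA came from primary fibroblasts of C57BL6/J mouse embryos at E14.5, an age given by the labels for every sample. The 4 groups were Hif-p4h-1-/- (knockout) cells in hypoxia, knockout cells in normoxia, Hif-p4h-1+/+ (wild-type) cells in hypoxia and wild-type cells in normoxia, with 2 arrays each. The oxygen level, the length of the exposure and the number of embryos behind an array are stated nowhere in the labels. The titles mark 1 array of every group as 2nd, and these 4 arrays are called the second set here and the other 4 the first. The knockout is carried by the mouse line and is not restricted to fibroblasts. The labels do not state that 2 arrays of a group are separate cultures, so the p-values below measure an array-to-array spread that may be technical.

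Collagens are trimers of alpha chains wound into a triple helix. Fibrillar collagens build the cables that give skin, bone and tendon their strength, type IV collagens build the sheet under epithelia and around vessels, and FACIT collagens sit on the surface of fibrils. Fibroblasts are the main producers of type I and type III collagen in connective tissue. Proline and lysine residues of the new chains are hydroxylated in the endoplasmic reticulum by enzymes that use oxygen. Hif-p4h-1 (gene Egln2, also called PHD1) is a different oxygen-dependent prolyl hydroxylase: it acts on the alpha subunits of the hypoxia-inducible factor HIF and marks them for degradation.

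Of the 42 genes, 33 had a promoter window in the RefSeq table of GRCm38.p6, in 36 windows of 300 bases that run from 250 bases before the annotated start to 50 bases from it onward. The 4 windows printed here belong to Col4a1 and Col4a2, neighbours that are transcribed away from each other, to Col7a1, whose value in hypoxia fell most among the 34 tested genes, and to Col5a1, which holds the HIF core letters and was lower in hypoxia. Capitals mark matches, on either strand, of the letters ACGTG, called the HIF core here, of GGGCGG, known as a GC box, and of CCAAT, and no marked matches share bases within these windows. The Col4a1 window is chr8:11312777-11313076 on the minus strand, the Col4a2 window chr8:11312555-11312854 on the plus strand, the Col5a1 window chr2:27886175-27886474 on the plus strand and the Col7a1 window chr9:108953336-108953635 on the plus strand. Each is printed 5′ to 3′.
Col4a1: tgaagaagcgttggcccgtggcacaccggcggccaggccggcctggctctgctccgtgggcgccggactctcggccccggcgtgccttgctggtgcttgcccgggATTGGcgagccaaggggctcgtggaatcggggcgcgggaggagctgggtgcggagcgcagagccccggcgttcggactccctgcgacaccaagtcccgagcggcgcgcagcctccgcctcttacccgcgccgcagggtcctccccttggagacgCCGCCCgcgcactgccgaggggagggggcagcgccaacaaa
Col4a2: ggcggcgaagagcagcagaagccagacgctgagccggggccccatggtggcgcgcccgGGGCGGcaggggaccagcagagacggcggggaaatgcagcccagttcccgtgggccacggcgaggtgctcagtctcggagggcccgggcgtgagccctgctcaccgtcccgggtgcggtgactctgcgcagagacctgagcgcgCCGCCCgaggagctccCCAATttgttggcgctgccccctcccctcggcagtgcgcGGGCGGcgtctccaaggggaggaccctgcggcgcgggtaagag
Col5a1: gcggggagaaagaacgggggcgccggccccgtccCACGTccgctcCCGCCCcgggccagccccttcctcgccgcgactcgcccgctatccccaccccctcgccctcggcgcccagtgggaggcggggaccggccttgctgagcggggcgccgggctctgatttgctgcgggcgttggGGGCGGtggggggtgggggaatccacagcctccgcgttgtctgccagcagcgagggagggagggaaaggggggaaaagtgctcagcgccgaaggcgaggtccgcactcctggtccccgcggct
Col7a1: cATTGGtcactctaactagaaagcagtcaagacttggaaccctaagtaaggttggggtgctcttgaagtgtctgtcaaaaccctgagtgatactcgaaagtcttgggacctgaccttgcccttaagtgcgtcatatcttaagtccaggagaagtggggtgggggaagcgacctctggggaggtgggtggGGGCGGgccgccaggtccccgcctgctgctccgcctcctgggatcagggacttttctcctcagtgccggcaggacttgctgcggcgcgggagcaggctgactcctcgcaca
The windows of Col4a1 and Col4a2 share 78 bases, chr8:11312777-11312854, read on opposite strands. Those of Col4a6 and Col4a5, likewise neighbours on opposite strands of chromosome X, lie 842 bases apart. The HIF core letters ACGTG were present in 4 of the 36 collagen windows (11.1%), against 19.6% of all 32851 windows in the table. The 4 windows were those of Col5a1, Col1a2, Col11a2 and Col4a4. GGGCGG was present in 22 windows (61.1%), against 35.7% of all windows, CCAAT in 13 (36.1%, against 37.4%) and TATAAA in 5 (13.9%, against 13.6%). The AP-1 letters TGANTCA were present in 1 window (2.78%), that of Col6a1, against 7.81% of all windows. These are matches of letters, not binding sites, and matches of different motifs were counted separately even where they shared bases.

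The labels of genotype and oxygen were checked on 3 genes. Egln2 read 8.34 and 8.0 in normoxic knockout cells, against 9.07 and 8.84 in normoxic wild-type cells, and 8.85 and 8.66 in hypoxic knockout cells, against 9.13 and 8.95 in hypoxic wild-type cells. The difference between knockout and wild-type cells was -0.79 ± 0.0889 (SE, limma adjusted p = 0.0489) in normoxia and -0.29 ± 0.0889 (SE, limma adjusted p = 0.725) in hypoxia, and where its probe set lies relative to the deletion the labels do not state. Bnip3, a HIF target, rose in hypoxia by 3.05 ± 0.0845 (SE, limma adjusted p = 3.2e-06) in knockout cells and by 3.95 ± 0.0845 (SE, limma adjusted p = 4.0e-07) in wild-type cells, and Pdk1, another HIF target, rose by 2.90 in knockout cells and by 3.80 in wild-type cells. All 9 markers of fibroblasts and mesenchyme lay above the limit for testing, among them Vim at 14.33 to 14.45 and Prrx1 at 11.80 to 12.15. Others varied more between arrays, such as Pdgfra at 8.14 to 9.87 and Lum at 5.46 to 9.69. The arrays of a set deviated together: across genes, second-set minus first-set differences correlated between groups at 0.710 to 0.850, so the set was a term in the fit. Both arrays of wild-type cells in the first set stood apart in some genes of other cell types. The skeletal muscle gene Myog read 8.04 and 7.96 on them and 3.48 to 4.33 on the other 6 arrays. Myod1, Myh3 and Tnnt3 of the same list were also highest on these arrays, while Acta1, Des and Ckm were not. Acta1 read 9.65 and 9.21 on them and 9.10 to 11.54 on the other 6. The summed level of the 7 skeletal muscle markers was 10.7 and 10.5 on them and 9.60 to 11.6 on the other 6. That of 8 macrophage and leukocyte markers was 11.5 and 11.1 on them and 8.90 to 10.0 on the other 6.

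Pairs of values below give the array of the second set and then that of the first. Col1a1 and Col1a2, the chains of type I collagen, lay between 11.90 and 12.35 and between 14.19 and 14.56 over the 8 arrays. The values of Col1a2 lie near the highest value in the data, 14.71, where arrays can lose response. Probe sets differ in how strongly they respond, so levels were compared between arrays and not between genes. The cartilage chain Col2a1 spanned 7.01 to 8.68, a range of 1.67, while the range of Col3a1 was 0.33. Col7a1, with 1.93, had the widest range of the 42 genes, and Col14a1 followed with 1.68.

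**Figure D1:**
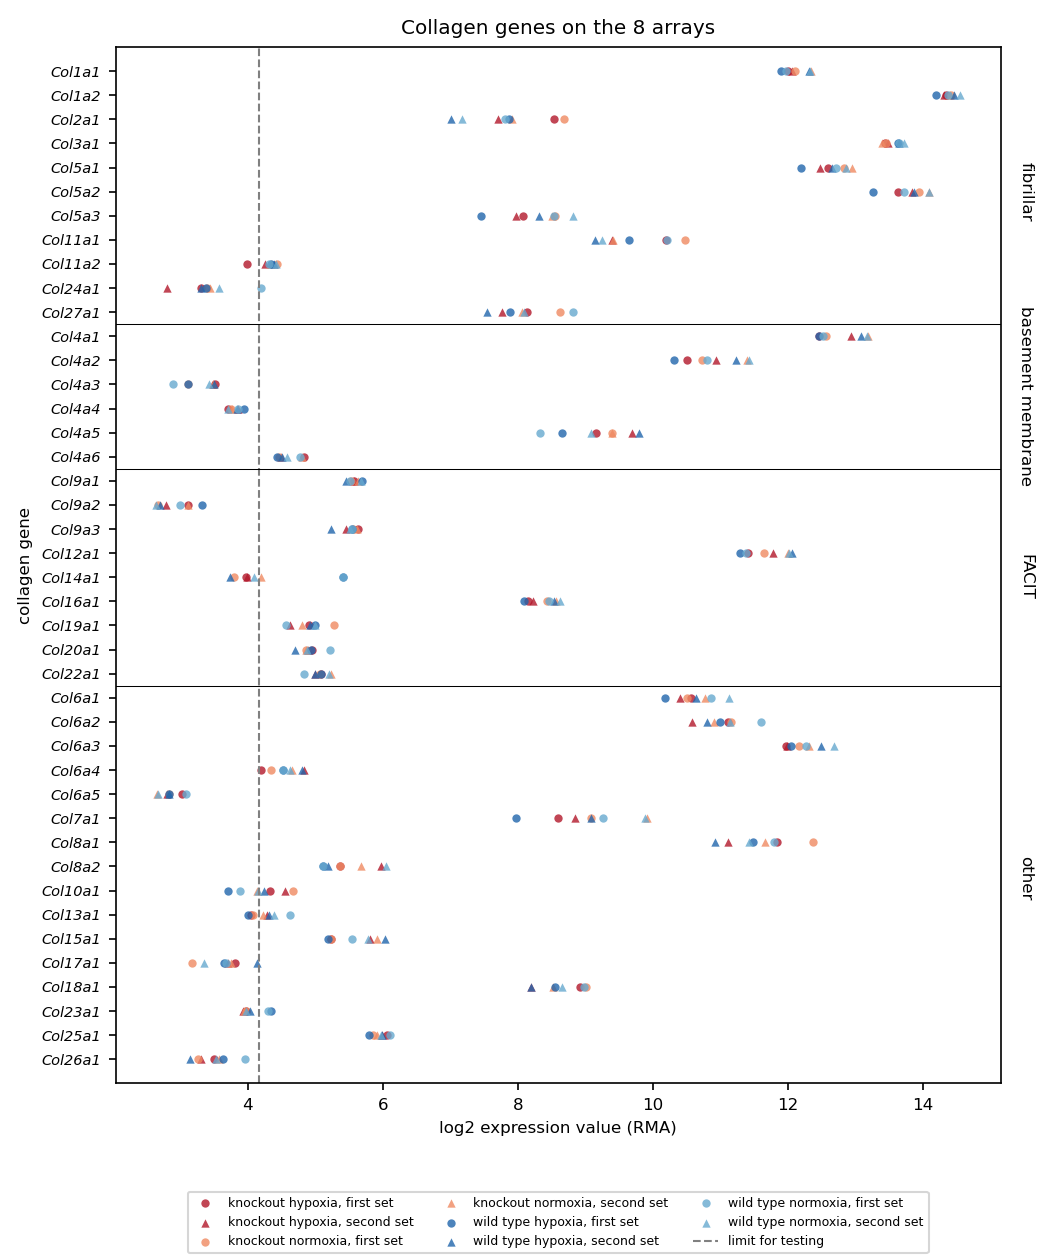
Log2 expression value (horizontal axis) of each of the 42 collagen genes (rows) on the 8 arrays, coloured by group and with circles for the first and triangles for the second set; the dashed line is the limit for testing, at 4.17. The 8 genes whose mean lies left of the line were not tested. Col14a1, which was tested, shows 2 points, both of wild-type cells in the first set, apart from the other 6, most of which lie left of the line.

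The effect of hypoxia was asked for in each genotype and over both. Over both genotypes, 11 of the 34 tested collagen genes were lower in hypoxia and 0 were higher (limma with Benjamini-Hochberg adjustment over all 13647 genes, adjusted p under 0.05), and 14 had an unadjusted p under 0.05. Of all genes tested, 28.7% passed the same test, 15.2% lower and 13.6% higher. The share of collagen genes called in either direction, 32.4%, was thus near that of all genes. All 11 of these calls were in the lower direction, where the share of all genes was 15.2%. Of the 34 changes 30 were negative, against 48.6% of those of all genes, a description with no test. The median change was -0.13 among the collagens and 0.01 among all genes. In knockout cells 2 collagen genes were lower and 0 higher, against 10.1% of all genes called (5.13% lower and 4.98% higher), with a median of -0.17 against 0.02. In wild-type cells 7 were lower and 0 higher, against 16.4% of all genes called (8.85% lower and 7.54% higher), with a median of -0.19 against -0.01. In bulk RNA, fewer cells of a type and less RNA per cell cannot be told apart.

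Signs of RNA quality moved with oxygen. When hypoxic arrays were paired with normoxic ones of the same genotype and set, the excess of the 3′ over the 5′ probe set was greater in hypoxia in all 4 pairs, by 0.10 to 0.17 for Actb and 0.04 to 0.33 for Gapdh; their part in the lower collagen values was not tested. All 4 smooth muscle and myofibroblast genes had negative changes in both genotypes, with a median of -0.23 over both and 1 called lower, and their summed level was 15.0 to 15.5 in hypoxia and 15.2 to 15.6 in normoxia. Of 7 tested macrophage and leukocyte markers 5 had negative changes over both genotypes, with a median of -0.29, 1 called lower and 1 higher, and the summed level of all 8 was 8.90 to 11.1 in hypoxia and 9.10 to 11.5 in normoxia. Their part in the collagen values was not tested either. Without the set in the fit, 0 collagen genes passed the test over both genotypes or in either one, while 99 genes of the whole array still did over both. Leaving out 1 array at a time gave 6 to 13 calls over both genotypes, with 6 when the first-set array of normoxic knockout cells or the second-set array of hypoxic knockout cells was left out and 7 without the second-set array of normoxic wild-type cells. Col7a1, Col8a1, Col27a1, Col4a2 and Col6a2 were called lower in all 8 of these fits, Col5a2 in 6, Col5a1 and Col5a3 in 5, Col6a1 and Col18a1 in 3 and Col16a1 in 1. In knockout cells the count was 0 to 6, with 0 without either array of normoxic knockout cells or the second-set array of hypoxic knockout cells, 1 without either array of normoxic wild-type cells and 6 without either array of hypoxic wild-type cells. The wild-type calls of Col27a1 held in 6 of 8 fits and those of Col5a3, Col6a1 and Col6a2 in 5, and the wild-type value of Col5a3, -0.79 with all arrays, was -0.38 without the first-set and -1.20 without the second-set array of hypoxic wild-type cells. In wild-type cells the count was 0 to 9, with 0 without the first-set array of hypoxic wild-type cells, 1 without the first-set array of normoxic wild-type cells and 2 without their second-set array.

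**Figure D2:**
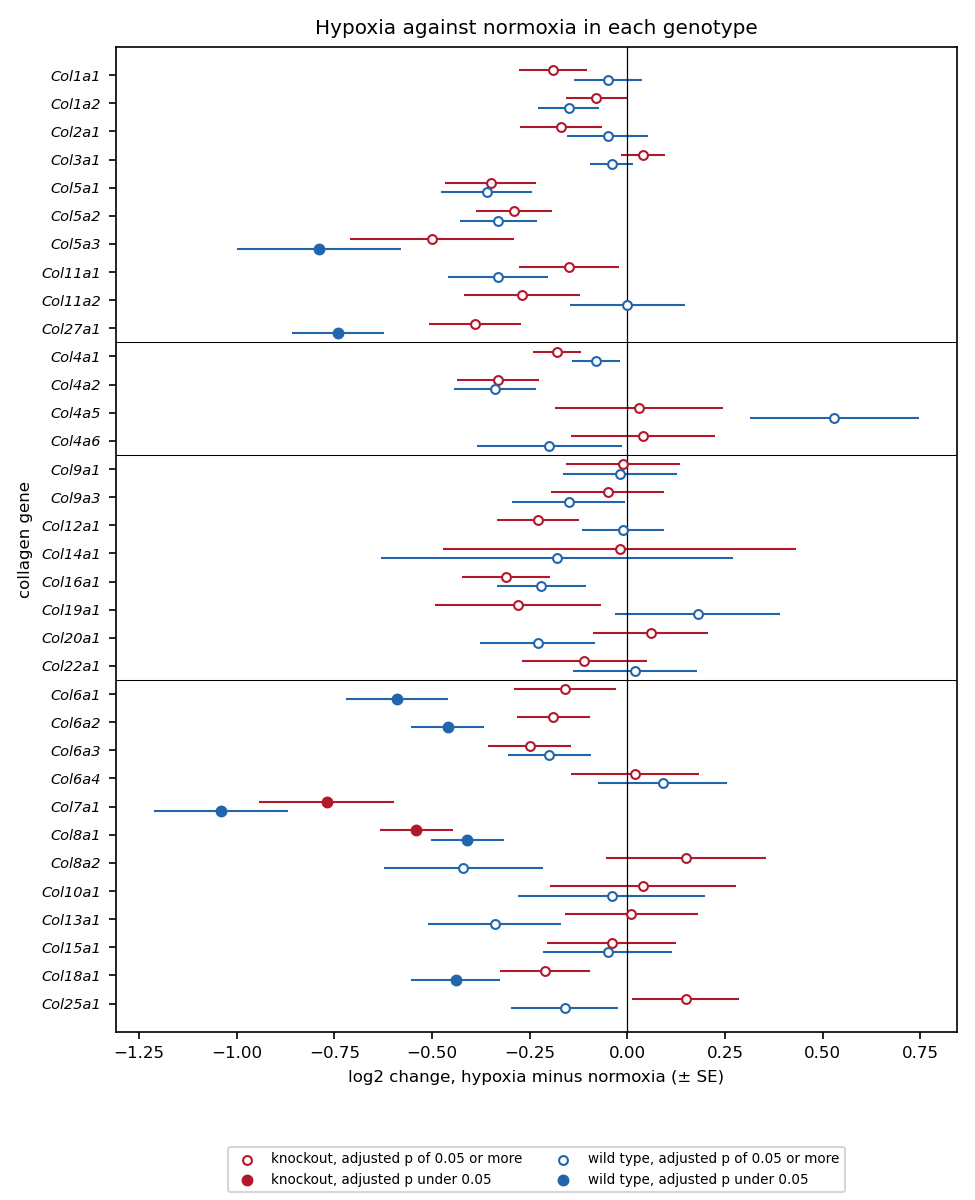
Log2 change in hypoxia against normoxia (horizontal axis, ± SE of the limma fit) of the 34 tested collagen genes (rows), in knockout cells (red, upper point of a row) and wild-type cells (blue, lower point); filled points have an adjusted p under 0.05. Most points lie left of 0, and Col7a1 lies furthest left in both genotypes.

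Among fibrillar collagens, hypoxia was accompanied by lower values of all 3 type V chains and of Col27a1, while the abundant type I and type III chains did not pass the test. Type V collagen is built into type I fibrils and governs their number and diameter. Col5a1 read 12.48 and 12.60 in hypoxic knockout cells, against 12.95 and 12.83 in normoxic knockout cells, and 12.66 and 12.19 in hypoxic wild-type cells, against 12.86 and 12.71 in normoxic wild-type cells. All 4 hypoxic arrays lay below all 4 normoxic arrays, and the change over both genotypes was -0.35 ± 0.0821 (SE, limma adjusted p = 0.0137). Its window is printed above with the HIF core match 216 bases before the start, whose bearing on the change was not tested. Col1a2 and Col11a2, whose windows also hold these letters, did not pass the test for hypoxia, and Col4a4 was not tested. Col5a3 read 7.98 and 8.08 in hypoxic knockout cells, against 8.51 and 8.55 in normoxic knockout cells, and 8.32 and 7.45 in hypoxic wild-type cells, against 8.82 and 8.53 in normoxic wild-type cells, again with no overlap between hypoxia and normoxia, and changed by -0.64 ± 0.148 (SE, limma adjusted p = 0.0134). Such a lack of overlap in the lower direction was found for 2 of the 34 collagen genes, these ones, against 8.20% of all genes (7.09% in the higher direction and 15.3% in either).

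Col5a2 read 13.84 and 13.63 in hypoxic knockout cells, against 14.10 and 13.95 in normoxic knockout cells, and 13.87 and 13.27 in hypoxic wild-type cells, against 14.09 and 13.72 in normoxic wild-type cells. Its hypoxic and normoxic arrays were apart within each set but overlapped over the 8 arrays, and the change was -0.31 ± 0.0695 (SE, limma adjusted p = 0.0117). Col27a1, a fibrillar collagen of cartilage, read 7.76 and 8.14 in hypoxic knockout cells, against 8.07 and 8.62 in normoxic knockout cells, and 7.54 and 7.89 in hypoxic wild-type cells, against 8.09 and 8.82 in normoxic wild-type cells. It fell in wild-type cells by 0.74 on the log2 scale (limma adjusted p = 0.00662) and over both genotypes by 0.57 (adjusted p = 0.00206); in knockout cells the value was -0.39 ± 0.118 (SE, limma adjusted p = 0.0715). Within each set, its hypoxic value was below the normoxic one in both genotypes.

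The chains of type I collagen did not pass the test for hypoxia. Col1a1 read 12.07 and 12.01 in hypoxic knockout cells, against 12.35 and 12.11 in normoxic knockout cells, and 12.32 and 11.90 in hypoxic wild-type cells, against 12.33 and 11.98 in normoxic wild-type cells, a change of -0.12 ± 0.0615 (SE, limma adjusted p = 0.198). Col1a2 read 14.31 and 14.35 in hypoxic knockout cells, against 14.41 and 14.42 in normoxic knockout cells, and 14.46 and 14.19 in hypoxic wild-type cells, against 14.56 and 14.38 in normoxic wild-type cells, a change of -0.12 ± 0.0554 (SE, limma adjusted p = 0.163). The hypoxic arrays of both genes lay below the normoxic ones in all 4 pairs, by 0.01 to 0.28 for Col1a1 and by 0.07 to 0.19 for Col1a2, which the test did not separate from the spread between arrays. Further probe sets changed more, as a description: that of Col1a1 by -0.24, and those of Col1a2, with means of 13.23 and 6.20, by -0.22 and -1.47. Col3a1, the single chain of type III collagen, read 13.49 and 13.44 in hypoxic knockout cells, against 13.39 and 13.46 in normoxic knockout cells, and 13.65 and 13.64 in hypoxic wild-type cells, against 13.72 and 13.65 in normoxic wild-type cells, and its change was 0.00 ± 0.0392 (SE, limma adjusted p = 1). The cartilage chains Col2a1 and Col11a1 changed by -0.11 ± 0.0735 (SE, limma adjusted p = 0.302) and -0.24 ± 0.0906 (SE, limma adjusted p = 0.0836). Col11a2, the partner of Col11a1 in type XI collagen, stayed between 3.99 and 4.43 and changed by -0.13 ± 0.104 (SE, limma adjusted p = 0.387).

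**Figure D3:**
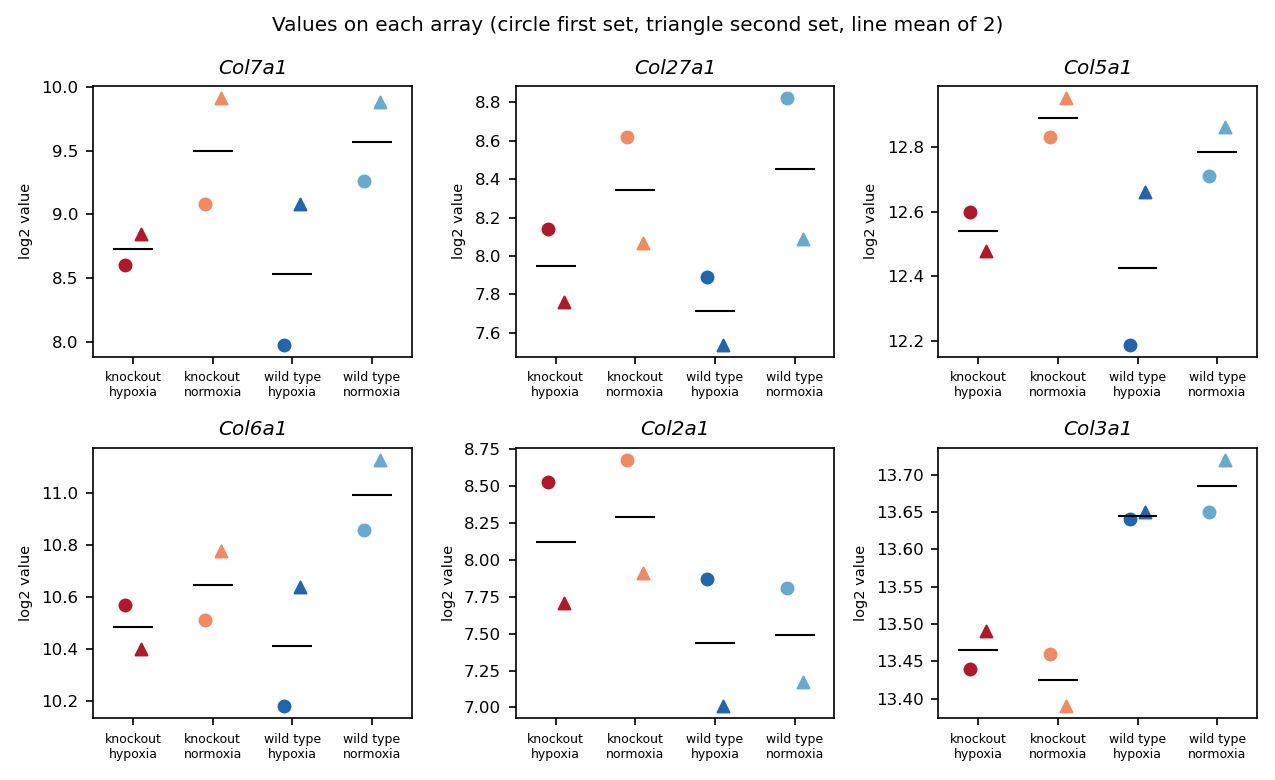
Log2 expression value (vertical axes, which do not start at 0) of 6 collagen genes on each array, by group, with circles for the first set, triangles for the second set and a line at the mean of each group's 2 arrays. Col7a1, Col27a1, Col5a1 and Col6a1 have lower group means in hypoxia in both genotypes, though the first-set knockout array of Col6a1 is higher in hypoxia. Col2a1 is higher in knockout cells within each set, and all 4 knockout arrays of Col3a1 lie below the 4 wild-type arrays.

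Of the basement membrane collagens, Col4a2 fell in hypoxia and Col4a1, the partner whose promoter window overlaps its own and which joins it in the most widespread type IV trimer, missed the threshold. Col4a2 read 10.94 and 10.51 in hypoxic knockout cells, against 11.39 and 10.73 in normoxic knockout cells, and 11.23 and 10.32 in hypoxic wild-type cells, against 11.43 and 10.80 in normoxic wild-type cells, lower in hypoxia in all 4 pairs, with a change of -0.34 ± 0.0742 (SE, limma adjusted p = 0.0112). Col4a1 read 12.94 and 12.46 in hypoxic knockout cells, against 13.19 and 12.57 in normoxic knockout cells, and 13.08 and 12.46 in hypoxic wild-type cells, against 13.18 and 12.53 in normoxic wild-type cells. It was also lower in all 4 pairs, by 0.07 to 0.25, with a change of -0.13 ± 0.0435 (SE, limma adjusted p = 0.0526). Col4a5, a chain of the kidney and eye basement membrane network encoded on the X chromosome, read 9.69 and 9.16 in hypoxic knockout cells, against 9.40 and 9.39 in normoxic knockout cells, and 9.80 and 8.66 in hypoxic wild-type cells, against 9.08 and 8.33 in normoxic wild-type cells, and its change was 0.53 ± 0.216 (SE, limma adjusted p = 0.138) in wild-type cells and 0.03 ± 0.216 (SE, limma adjusted p = 0.949) in knockout cells. Col4a6, its neighbour on that chromosome, lay between 4.44 and 4.84 and changed by -0.08 ± 0.131 (SE, limma adjusted p = 0.691). Col4a3 and Col4a4 were not tested, with values of 2.89 to 3.52 and 3.70 to 3.95.

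Among the FACIT collagens 1 of 8 tested genes (12.5%) passed the test over both genotypes, against 28.7% of all genes (15.2% lower). Col16a1, which associates with fibrils in skin and cartilage, read 8.23 and 8.15 in hypoxic knockout cells, against 8.56 and 8.44 in normoxic knockout cells, and 8.54 and 8.09 in hypoxic wild-type cells, against 8.62 and 8.46 in normoxic wild-type cells. It was lower in hypoxia in all 4 pairs, and the change was -0.27 ± 0.0802 (SE, limma adjusted p = 0.038); leaving out 1 array at a time, the call held in 1 of 8 fits, with adjusted p between 0.0170 and 0.143. Col12a1, found on type I fibrils of tendon and skin, read 11.78 and 11.41 in hypoxic knockout cells, against 12.00 and 11.65 in normoxic knockout cells, and 12.07 and 11.30 in hypoxic wild-type cells, against 12.02 and 11.38 in normoxic wild-type cells, and changed by -0.12 ± 0.0745 (SE, limma adjusted p = 0.268). The other 6 tested members had changes between -0.10 and -0.01 over both genotypes, and none passed. Their values spanned 5.46 to 5.69 for Col9a1 and 5.23 to 5.63 for Col9a3, both of cartilage fibrils, 3.73 to 5.41 for Col14a1, 4.56 to 5.28 for Col19a1, 4.70 to 5.22 for Col20a1 and 4.84 to 5.23 for Col22a1, a collagen of tissue junctions. Col9a2, the third chain of type IX collagen, was not tested, with 2.64 to 3.32.

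The other collagens held the change of greatest size among the 34. Col7a1 encodes the collagen of the anchoring fibrils that fasten epidermis to dermis. It read 8.85 and 8.60 in hypoxic knockout cells, against 9.91 and 9.08 in normoxic knockout cells, and 9.08 and 7.98 in hypoxic wild-type cells, against 9.88 and 9.26 in normoxic wild-type cells. Hypoxic and normoxic arrays were apart within each genotype, but over all 8 arrays the conditions overlapped, with second-set arrays higher than first-set ones. The change was -0.77 ± 0.172 (SE, limma adjusted p = 0.0296) in knockout cells and -1.04 ± 0.172 (SE, limma adjusted p = 0.00743) in wild-type cells, a 1.71-fold and a 2.06-fold lower value in hypoxia. The call in knockout cells held in 3 of 8 fits that leave out 1 array, with a value of -0.47 without the second-set array of hypoxic knockout cells, and that in wild-type cells in 6 of 8.

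Type VI collagen forms beaded microfilaments from 3 main chains, Col6a1, Col6a2 and Col6a3. Col6a1 read 10.40 and 10.57 in hypoxic knockout cells, against 10.78 and 10.51 in normoxic knockout cells, and 10.64 and 10.18 in hypoxic wild-type cells, against 11.13 and 10.86 in normoxic wild-type cells. It fell in wild-type cells by 0.59 on the log2 scale (limma adjusted p = 0.0212), and in knockout cells the value was -0.16 ± 0.131 (SE, limma adjusted p = 0.496), with a first-set array that was higher in hypoxia by 0.06. Col6a2 read 10.58 and 11.11 in hypoxic knockout cells, against 10.91 and 11.16 in normoxic knockout cells, and 10.81 and 11.00 in hypoxic wild-type cells, against 11.14 and 11.60 in normoxic wild-type cells, and likewise changed by -0.46 ± 0.0933 (SE, limma adjusted p = 0.0148) in wild-type cells and -0.19 ± 0.0933 (SE, limma adjusted p = 0.238) in knockout cells. Col6a3 read 11.99 and 11.98 in hypoxic knockout cells, against 12.31 and 12.17 in normoxic knockout cells, and 12.50 and 12.05 in hypoxic wild-type cells, against 12.68 and 12.27 in normoxic wild-type cells. It was lower in hypoxia in all 4 pairs, and at -0.23 ± 0.075 (SE, limma adjusted p = 0.0533) over both genotypes it did not pass. Col6a4, at 4.20 to 4.84, changed by 0.06 ± 0.116 (SE, limma adjusted p = 0.76), and Col6a5 was not tested, with 2.66 to 3.08.

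Col8a1, a short-chain collagen of vessel walls and the cornea, read 11.12 and 11.84 in hypoxic knockout cells, against 11.66 and 12.38 in normoxic knockout cells, and 10.93 and 11.48 in hypoxic wild-type cells, against 11.43 and 11.79 in normoxic wild-type cells. It was lower in hypoxia in all 4 pairs and passed in both genotypes, with -0.54 ± 0.0938 (SE, limma adjusted p = 0.0141) in knockout cells and -0.41 ± 0.0938 (SE, limma adjusted p = 0.0238) in wild-type cells. Each of these calls held in 5 of the 8 fits that leave out 1 array. The knockout call was lost without either array of normoxic knockout cells or the second-set array of hypoxic knockout cells. The wild-type call was lost without either array of hypoxic wild-type cells, and without the second-set array of normoxic wild-type cells, where the value was -0.25 (limma adjusted p = 0.143). The further probe sets of Col8a1 did not show that direction, as given below. Col8a2, its partner, read 5.98 and 5.36 in hypoxic knockout cells, against 5.68 and 5.36 in normoxic knockout cells, and 5.19 and 5.12 in hypoxic wild-type cells, against 6.05 and 5.11 in normoxic wild-type cells, and changed by -0.14 ± 0.144 (SE, limma adjusted p = 0.533). Col18a1, whose C-terminal fragment is endostatin, read 8.19 and 8.92 in hypoxic knockout cells, against 8.52 and 9.01 in normoxic knockout cells, and 8.20 and 8.55 in hypoxic wild-type cells, against 8.65 and 8.98 in normoxic wild-type cells. It fell in wild-type cells by 0.44 on the log2 scale (limma adjusted p = 0.0364), with -0.21 ± 0.115 (SE, limma adjusted p = 0.294) in knockout cells. The wild-type call held in 2 of 8 fits that leave out 1 array, those without either array of hypoxic knockout cells, with adjusted p up to 0.222, and the call over both genotypes in 3 of 8. Col15a1, the other multiplexin, spanned 5.19 to 6.03 and changed by -0.05 ± 0.117 (SE, limma adjusted p = 0.808). The remaining tested members were near the limit or changed little: Col10a1 of hypertrophic cartilage at 3.71 to 4.67, and the transmembrane collagens Col13a1 at 4.01 to 4.62 and Col25a1 at 5.79 to 6.11. Their changes over both genotypes lay between -0.16 and 0.00. Col17a1 at 3.18 to 4.14, Col23a1 at 3.93 to 4.34 and Col26a1 at 3.15 to 3.96 were not tested.

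Different probe sets of a gene can read different transcript ends, and for the 11 genes lower in hypoxia over both genotypes they were compared as a description. Col5a1 changed by -0.35 on the tested probe set and by -0.95 and -0.50 on 2 further ones. Col5a2 changed by -0.31 and, on a further probe set, by -0.52, and Col27a1 by -0.57 and -0.49. Col6a2 had -0.33 and -0.17, Col18a1 had -0.33 and -0.62, and the further probe set of Col5a3, whose mean of 3.42 lies below the limit, had -0.09. Col8a1 was the exception: the tested probe set changed by -0.47, and the others, with means of 10.25 and 7.80, by 0.14 and 0.00. Averaged over all probe sets of a gene, 12 collagen genes were lower over both genotypes, without Col8a1 and with Col1a2 and Col4a1. In that setting 23.5% of all genes were called in either direction. Col4a2, Col16a1, Col6a1 and Col7a1 have 1 probe set each.

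**Figure D4:**
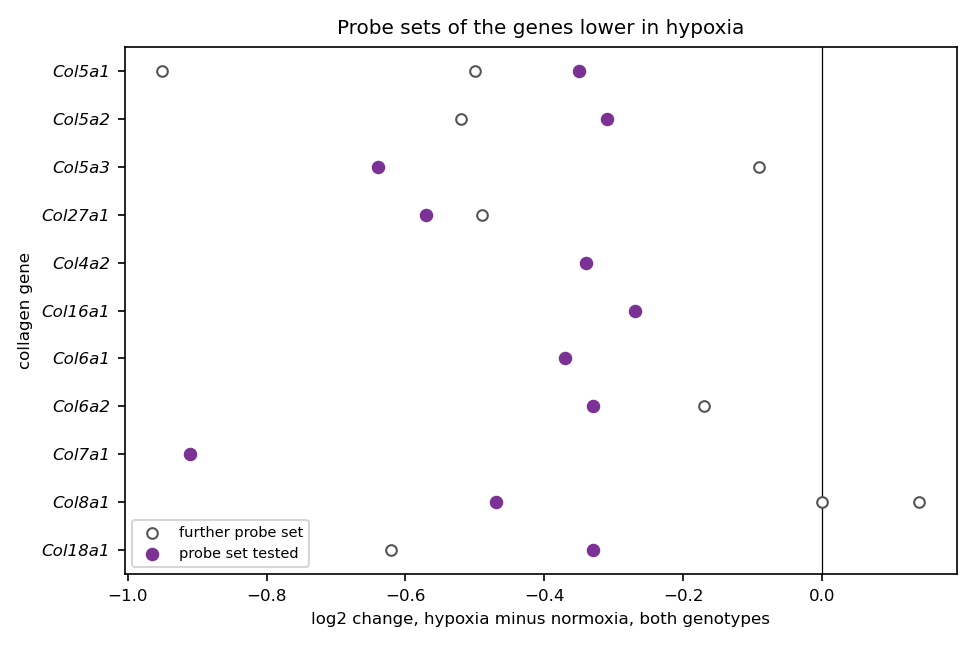
Log2 change in hypoxia against normoxia over both genotypes (horizontal axis) for each probe set of the 11 collagen genes called lower (rows); filled points are the probe sets tested and open points the further ones. Col8a1 is the gene whose open points, at 0.00 and 0.14, do not lie left of 0.

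Whether the response to hypoxia differed between genotypes was tested directly, as the change in knockout cells minus the change in wild-type cells. No collagen gene passed this test: 0 of 34 had an adjusted p under 0.05 by limma and 0 had an unadjusted p under 0.05, and 0% of all 13647 genes were called. The median was 0.05 among the collagens and 0.02 among all genes. Of the genes called in wild-type cells alone, Col6a1 had the smallest unadjusted p, with 0.43 ± 0.186 (SE, limma adjusted p = 1). Col27a1 had 0.35 ± 0.167 (SE, limma adjusted p = 1) and Col6a2 0.27 ± 0.132 (SE, limma adjusted p = 1). The calls in wild-type cells and their absence in knockout cells are therefore not shown to differ.

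The effect of losing Hif-p4h-1 was asked for in normoxia, in hypoxia and over both. Col2a1, the chain of type II collagen and the main fibril of cartilage, was the collagen gene called, over both oxygen conditions: 1 of 34 was higher and 0 were lower, against 0.256% of all genes called (0.0586% higher and 0.198% lower). It read 7.91 and 8.68 in normoxic knockout cells, against 7.17 and 7.81 in normoxic wild-type cells, and 7.71 and 8.53 in hypoxic knockout cells, against 7.01 and 7.87 in hypoxic wild-type cells. The knockout value was higher in 4 of 4 pairs of the same set and oxygen condition, by 0.66 to 0.87, while second-set arrays were lower, so that the 4 knockout and 4 wild-type arrays overlapped. The difference was 0.74 ± 0.0735 (SE, limma adjusted p = 0.0125), a 1.67-fold higher level in knockout cells. In normoxia it was 0.80 ± 0.104 (SE, limma adjusted p = 0.0524), and in hypoxia 0.68 ± 0.104 (SE, limma adjusted p = 0.206). Leaving out 1 array at a time kept the difference between 0.70 and 0.79, and the call in 1 of 8 fits, that without the second-set array of normoxic wild-type cells, with adjusted p between 0.0295 and 0.0992 over the 8. Col2a1 has 1 probe set on the array.

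Markers of other cells were set beside this result. Of 9 cartilage markers, 6 were tested and 0 passed in the same comparison, while 5 of the 6 values were positive, with a median of 0.16 against -0.01 for all genes; the summed level of the 9 was 8.35 to 8.80 in knockout cells and 8.24 to 8.89 in wild-type cells. Sox9, the regulator of cartilage fate, read 6.55 to 7.52 in knockout cells and 6.62 to 7.94 in wild-type cells, and its value was the negative one of the 6. Acan, the cartilage proteoglycan, read 6.31 and 6.26 in normoxic knockout cells, against 6.20 and 5.54 in normoxic wild-type cells, and 5.97 and 6.54 in hypoxic knockout cells, against 5.93 and 6.20 in hypoxic wild-type cells. It was higher in knockout cells in all 4 pairs, as was the cartilage chain Col11a1, with 0.30 ± 0.0906 (SE, limma adjusted p = 0.313), and neither passed the test. Other tested collagens of cartilage went both ways, and none passed. Col11a2 had -0.11, Col16a1 -0.08 and Col9a1 -0.01, while Col27a1 had 0.06, Col9a3 0.10 and Col10a1 0.42. Matn1, Hapln1 and Chad were below the limit for testing. Of 8 macrophage and leukocyte markers, 7 were tested and 4 were called lower in knockout cells, against 0.198% of all genes in that direction. The summed level of the 8 was 8.90 to 9.90 in knockout cells and 9.81 to 11.5 in wild-type cells. Of the 9 fibroblast and mesenchyme markers, all tested, 2 were called lower in knockout cells and 0 higher. The part of these cell types in the collagen values was not tested.

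In normoxia 0 of 34 collagen genes passed between genotypes by limma, with 6 at an unadjusted p under 0.05, against 0.0366% of all genes called (0.00733% higher and 0.0293% lower). In hypoxia 0 passed, with 6 at an unadjusted p under 0.05, against 0.0293% of all genes. Col3a1 read 13.39 and 13.46 in normoxic knockout cells, against 13.72 and 13.65 in normoxic wild-type cells, and 13.49 and 13.44 in hypoxic knockout cells, against 13.65 and 13.64 in hypoxic wild-type cells. All 4 knockout arrays lay below all 4 wild-type arrays, which held for 1 of the 34 collagen genes against 0.799% of all genes in that direction and 1.24% in either, and the difference of -0.22 ± 0.0392 (SE, limma adjusted p = 0.0931) did not pass. A further probe set of Col3a1 had a difference of -0.31. Col8a1 was higher in knockout cells in all 4 pairs, by 0.19 to 0.59, with 0.34 ± 0.0663 (SE, limma adjusted p = 0.116). For Col1a1 the difference was 0.00 ± 0.0615 (SE, limma adjusted p = 0.993), and for Col1a2 -0.02 ± 0.0554 (SE, limma adjusted p = 0.925). The 3 main type VI chains had differences of -0.14 (Col6a1), -0.20 (Col6a2) and -0.26 (Col6a3), all with adjusted p above the threshold.

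Col14a1 and Col4a5, singled out after their values were seen, had unlike genotype differences in the 2 sets, and neither passed the test. Col14a1, a FACIT collagen of type I fibrils, read 4.19 and 3.80 in normoxic knockout cells, against 4.09 and 5.41 in normoxic wild-type cells, and 3.99 and 3.97 in hypoxic knockout cells, against 3.73 and 5.41 in hypoxic wild-type cells. The knockout value was below the wild-type value by 1.53 in the first set, and above it by 0.18 in the second. The mean of Col14a1, 4.32, lay above the limit for testing through the first-set arrays of wild-type cells, both at 5.41. The other arrays read 3.73 to 4.19, most of them below that limit. Its place among the tested genes and its first-set difference thus rested on these 2 arrays. A further probe set of the transmembrane collagen Col25a1 had the same layout, with 3.33 to 3.81 on the 4 knockout arrays, 3.79 and 3.74 on the second-set arrays of wild-type cells and 5.09 and 5.28 on the first-set ones. These are the 2 arrays on which Myog and the summed macrophage markers were high, while the summed skeletal muscle markers were not highest there. The part of muscle or other cells in the Col14a1 values was not tested. Col4a5 read 9.40 and 9.39 in normoxic knockout cells, against 9.08 and 8.33 in normoxic wild-type cells, and 9.69 and 9.16 in hypoxic knockout cells, against 9.80 and 8.66 in hypoxic wild-type cells, a difference of 0.69 ± 0.216 (SE, limma adjusted p = 0.55) in normoxia that was 1.06 between first-set arrays and 0.32 between second-set arrays.

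More collagen genes passed the test between sets than between oxygen conditions or genotypes. In the second set 11 of the 34 were higher and 6 lower than in the first, against 46.1% of all genes called (25.4% higher and 20.7% lower), so the collagen share, 17 of 34, was near that of all genes. Groups of arrays did not overlap for 6 collagen genes, against 32.1% of all genes. Of the 4 tested chains of type IV collagen 3 were higher in the second set: Col4a1 by 0.59 ± 0.0435 (SE, limma adjusted p = 3.3e-05), Col4a2 by 0.66 ± 0.0742 (SE, limma adjusted p = 2.2e-04) and Col4a5 by 0.61 ± 0.153 (SE, limma adjusted p = 0.0116). Col4a6, the remaining one, had -0.03 ± 0.131 (SE, limma adjusted p = 0.864). Col4a1 read 12.94, 13.19, 13.08 and 13.18 on the second-set arrays of hypoxic knockout, normoxic knockout, hypoxic wild-type and normoxic wild-type cells, against 12.46, 12.57, 12.46 and 12.53 on their first-set arrays. On its further probe set the difference was 1.09.

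The genes lower in the second set were Col11a1, Col2a1, Col27a1, Col6a2, Col8a1 and Col18a1. Col11a1, a chain of cartilage fibrils, read 9.39, 9.41, 9.15 and 9.25 on the second-set arrays of hypoxic knockout, normoxic knockout, hypoxic wild-type and normoxic wild-type cells, against 10.20, 10.48, 9.65 and 10.21 on their first-set arrays, a difference of -0.83 ± 0.0906 (SE, limma adjusted p = 1.9e-04). Col2a1 was lower by 0.64 to 0.86 in the 4 groups, with -0.77 ± 0.0735 (SE, limma adjusted p = 1.0e-04), and Col27a1 by 0.35 to 0.73, with -0.50 ± 0.0836 (SE, limma adjusted p = 0.00156). Also lower were Col6a2 with -0.36 ± 0.066 (SE, limma adjusted p = 0.00262), Col8a1 with -0.59 ± 0.0663 (SE, limma adjusted p = 2.2e-04) and Col18a1 with -0.47 ± 0.0817 (SE, limma adjusted p = 0.00184). Col12a1 was higher in the second set by 0.53 ± 0.0745 (SE, limma adjusted p = 6.5e-04) and Col15a1 by 0.58 ± 0.117 (SE, limma adjusted p = 0.00396). Col15a1 read 5.81, 5.91, 6.03 and 5.78 on the second-set arrays of hypoxic knockout, normoxic knockout, hypoxic wild-type and normoxic wild-type cells, against 5.24, 5.23, 5.19 and 5.54 on their first-set arrays. The other higher genes were Col7a1 with 0.70, Col8a2 with 0.49, Col5a2 with 0.33, Col6a4 with 0.33, Col1a1 with 0.27 and Col6a3 with 0.25. Col6a4 read 4.84, 4.65, 4.81 and 4.62 on the second-set arrays of hypoxic knockout, normoxic knockout, hypoxic wild-type and normoxic wild-type cells, against 4.20, 4.35, 4.52 and 4.52 on their first-set arrays.

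**Figure D5:**
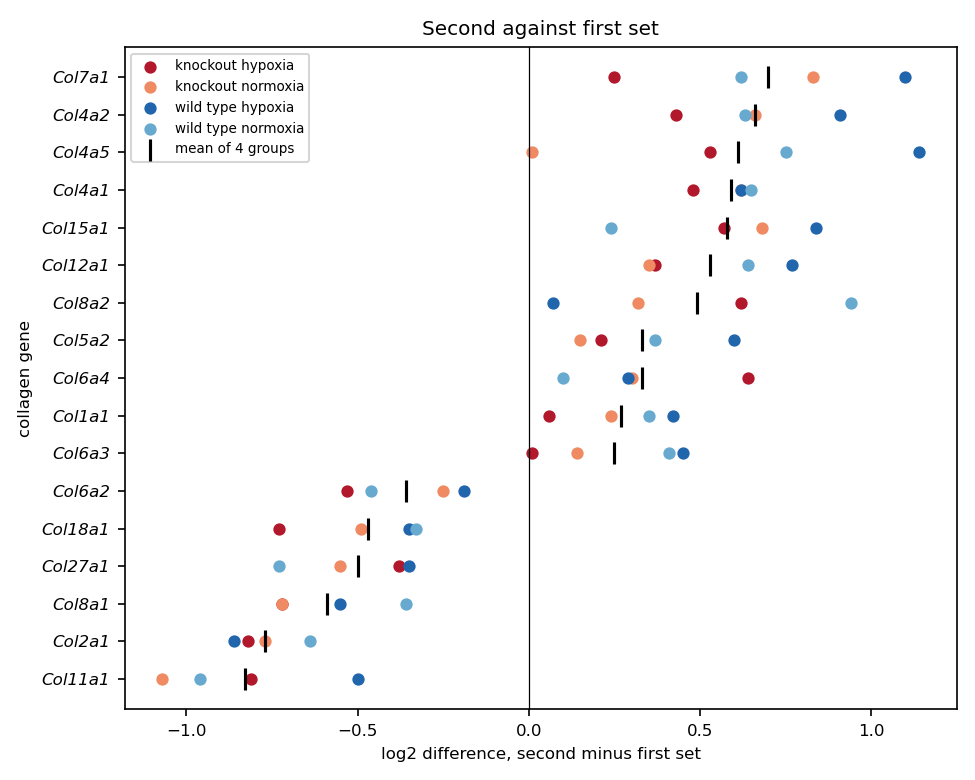
Log2 difference, second minus first set (horizontal axis), in each group (coloured points) for the 17 collagen genes called between sets (rows), with the mean of the 4 groups as a bar. The 11 genes at the top are higher and the 6 at the bottom lower in the second set, and for each gene the 4 groups lie on the same side of 0.

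Smooth muscle and myofibroblast genes moved with the set: all 4 of that list, Acta2, Tagln, Cnn1 and Myh11, were called higher in the second set, against 25.4% of all genes. Their summed level was 15.5 to 15.6 against 15.0 to 15.3. The 3′ to 5′ difference of Actb was lower in the second set by 0.16 to 0.26, while that of Gapdh differed by -0.25 to 0.07. Of 7 tested macrophage and leukocyte markers 6 were called lower, against 20.7% of all genes. Of the 9 fibroblast and mesenchyme markers 3 were called higher and 2 lower, against 25.4% and 20.7% of all genes. Their part in the set difference of the collagens was not tested.

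Genes that process, export and bind collagen were counted from lists of their own. Of 25 tested genes of collagen processing, 9 were higher and 2 lower in hypoxia over both genotypes, against 28.7% of all genes called (13.6% higher and 15.2% lower), with a median of 0.15 against 0.01 for all genes. None of the 34 chain genes was higher. P4ha1 and P4ha2, catalytic subunits of the collagen prolyl 4-hydroxylase, and Plod2, a lysyl hydroxylase, are known HIF targets in human fibroblasts, and Plod1 is another lysyl hydroxylase. P4ha1 read 11.94 and 11.57 in hypoxic knockout cells, against 11.16 and 10.79 in normoxic knockout cells, and 11.97 and 11.47 in hypoxic wild-type cells, against 10.85 and 10.28 in normoxic wild-type cells. It was higher by 0.97 ± 0.0523 (SE, limma adjusted p = 3.0e-05), and P4ha2 by 1.58 ± 0.0878 (SE, limma adjusted p = 3.4e-05). Plod1 was higher by 1.57 ± 0.11 (SE, limma adjusted p = 1.1e-04) and Plod2 by 1.28 ± 0.0988 (SE, limma adjusted p = 1.6e-04). In knockout cells 6 genes of the list were higher and 0 lower, against 10.1% of all genes called, and in wild-type cells 6 and 0, against 16.4%.

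Of 11 tested genes of collagen secretion, 2 were higher and 3 lower over both genotypes, and of 8 tested receptors 0 were higher and 3 lower. Of all genes 28.7% were called, 13.6% higher and 15.2% lower. Ddr2, a receptor tyrosine kinase for fibrillar collagen, read 9.81 and 9.98 in hypoxic knockout cells, against 10.37 and 10.58 in normoxic knockout cells, and 9.75 and 9.76 in hypoxic wild-type cells, against 10.41 and 10.63 in normoxic wild-type cells, and in wild-type cells it changed by -0.77 ± 0.0802 (SE, limma adjusted p = 0.00148). Its hypoxic arrays lay below its normoxic arrays in both genotypes. Of 18 tested partners of fibrils, 2 were higher and 5 lower in hypoxia, with a median of -0.21. The shares called in either direction, 37.5% of the receptors and 38.9% of the partners, lay near that of all genes. Between genotypes, where 0.256% of all genes were called, 1 partner was higher and 1 lower in knockout cells: Ogn, a small leucine-rich proteoglycan, with 0.58 ± 0.077 (SE, limma adjusted p = 0.0315), and Dcn, another one, which coats type I fibrils, with -0.51 ± 0.0611 (SE, limma adjusted p = 0.0225). In the second set 17 processing genes were higher and 3 lower, 8 and 0 of secretion, 4 and 0 of the receptors and 7 and 4 of the partners, against 46.1% of all genes called (25.4% higher and 20.7% lower). Thbs2 was higher there by 1.46, the cross-linking enzyme Loxl3 by 1.25, the procollagen C-proteinase Bmp1 by 1.14 and the collagen galactosyltransferase Colgalt1 by 0.73.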

How the data were processed

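The authors deposited log2 expression values, rounded to 2 decimals, of 45037 probe sets for 8 one-colour Affymetrix arrays hybridised, per the labels' protocols, with biotinylated cRNA made from 5 ug of total RNA. Per the submitters' processing notes the authors made these log2 values with RMA, which subtracts background, brings arrays to a common distribution and summarises probes, and so hides any change common to all transcripts; the version is not given. The number of arrays limits the precision.

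Gene symbols came from the platform annotation and were updated through Entrez identifiers and the RefSeq table of GRCm38.p6; 34945 probe sets had exactly 1 symbol, while 932 with several symbols and 9160 unnamed ones were left out. Each gene was its probe set of highest mean. Genes below the 25th percentile were not tested. The log2 values of all 8 arrays were fitted in R 4.3.3 with limma 3.58.1, a mean per group plus the set, and eBayes with a mean-variance trend (3 residual and 5.22 prior degrees of freedom), with Benjamini-Hochberg adjustment over 13647 genes at 0.05. The titles pair the arrays by set: the set differences of the groups correlated at 0.710 to 0.850 over genes, so the set is a replicate block in the fit. The fit was tested on simulated data.

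The collagen members, the lists of processing, secretion, receptor, partner and marker genes and the settings were chosen with earlier results of these data known. Values on every array are given for the type I, II and III chains, Col4a1, Col4a2, the 2 members of highest mean in each group and those called in any comparison; of the other lists, at most 4 called genes a comparison were named, by smallest adjusted p. Summed marker levels are the log2 of the sum of the list's linear values. Alternatives were median centring, quantile normalisation, no filter, no trend, no or a random replicate block, only the arrays compared, the mean over probe sets, and each array left out in turn.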

Additional observations from a re-analysis of the deposited data

How the results depend on the processing

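Direction was followed across settings for the collagen genes called in a comparison and for Col2a1 between genotypes, and none of these changed it. Among tested genes that were not called, several had probe sets of unlike sign. Col4a6 and Col9a1, at -0.08 and -0.01 in hypoxia over both genotypes, had 0.15 and 0.12 on their further probe sets. Col20a1, at -0.08, had 0.11, 0.16 and -0.28. Col9a3, Col12a1, Col14a1 and Col22a1, with negative changes, each had a further probe set with a positive one, at a mean below the limit for testing. Counts of collagen genes with a limma adjusted p under 0.05 depended on the fit. With no replicate block, 0 were called in hypoxia in knockout cells, in wild-type cells and over both, and 0 between genotypes over both conditions, with 12, 20, 99 and 0 genes called on the whole array. With the set as a random replicate block the counts were 0, 3, 8 and 0, in the same order, beside 3.79%, 8.3%, 20.8% and 0% of all genes. With no mean-variance trend they were 0, 2, 10 and 0, beside 4.42%, 9.83%, 24.1% and 0.022%. With only the 4 arrays of a comparison they were 0 in knockout and 2 in wild-type cells, beside 0.388% and 3.57% of all genes. Averaging over all probe sets left 1 in knockout cells, beside 6.81%. In these fits the share of all genes called was thus lower too. It was also lower in every fit that left out 1 array, for hypoxia and between sets. Between genotypes over both conditions it was lower too, except without the second-set array of normoxic wild-type cells. Median centring gave 1 call between genotypes in normoxia, where 0.0806% of all genes were called: Col2a1, with a difference of 0.85 (limma adjusted p = 0.0484). Leaving out 1 array at a time gave 0 to 6 calls in knockout cells, 0 to 9 in wild-type cells, 6 to 13 over both, 0 to 2 between genotypes over both conditions and 14 to 17 between sets. The second genotype call, without the second-set array of normoxic wild-type cells, was Col8a1. Without the first-set array of normoxic knockout cells 1 collagen gene, Col4a5, was called higher in hypoxia over both genotypes. Over both genotypes Col24a1 joined the genes lower in hypoxia without the filter, Col4a1 and Col6a3 with median centring, and Col1a2 and Col4a1 with the mean over probe sets. In wild-type cells Col5a2 joined them with quantile normalisation and Col5a1 with the mean over probe sets. Of the values of the genes followed, under the alternatives that keep all arrays or only those compared, 200 kept their side of the threshold, 56 no longer passed and 1, Col2a1, newly passed; other genes not called with the settings of the report are outside this tally. Fits without the set leave its differences in the error, and each group has 2 arrays, so calls rest on a spread with 3 residual degrees of freedom. Why the remaining settings moved the counts was not tested.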
